A study of Oikopleura dioica with 67 samples.

Results

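Whole embryos of the larvacean tunicate Oikopleura dioica were compared between the 8-cell stage, early in cleavage, and libraries labelled 12 hours post fertilization (hpf). Each side of the comparison has 4 RNA-seq libraries, numbered 3 to 6, chosen by their labels alone, so the comparison uses 8 of the 67 libraries of the series. The 8 libraries belong to a set of 24 that also holds animal and vegetal hemispheres of both stages, and a second set of 43 libraries covers 13 stages from the egg to the 10 hpf juvenile and adults. Animals of both groups were wild type, of a Japanese population kept in laboratory culture, with no treatment on either side, and the labelled tissue was embryo. The labels of the second set place hatched larvae at 3 hpf and the juvenile at 10 hpf. Total RNA was taken with TRIzol, and the kit of the set of 24 was not strand-specific, so reads of a gene and of an overlapping antisense gene cannot be told apart. Nothing in the labels says that the 4 libraries of a group came from separate cultures, so p-values measure only the spread between these libraries, which may be technical.

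A cleaving embryo lives largely on RNA and protein that the mother placed in the egg, and its own genome is switched on while the maternal RNA is cleared. A larvacean keeps a tail through life, with muscle cells beside the notochord, and a trunk that holds a gut, a brain, ciliated openings and, later, a gonad. The trunk epidermis is a specialised secretory sheet that builds the house, an extracellular filter structure of cellulose, glycoproteins and sulfated polysaccharides. Levels are in RPKM, reads per kilobase of assembled unigene scaled by the size of the library. The symbols are spelled as in the deposited table, and the roles given with them are those of the vertebrate genes that the symbols name. In bulk RNA, fewer cells of a type and less RNA per cell cannot be told apart.

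The labels were first checked against the means of the 13 stages (3 libraries each), which are normalized in a separate table. Across 19277 unigenes on the log2(RPKM + 1) scale, the 4 libraries labelled 12 hpf were most like the staged 5 hpf mean, at Pearson's r of 0.849 to 0.882 and Spearman's rho of 0.833 to 0.871. Their likeness to 8 hpf was lower, at an r of 0.715 to 0.753, and their likeness to the oldest staged sample, 10 hpf, was 0.666 to 0.709. The order was the same in each of the 4 libraries for 5, 8 and 10 hpf. The 8-cell libraries had an r of 0.894 to 0.930 with the staged 8-cell mean and 0.357 to 0.482 with 10 hpf. Their highest r was not with the labelled stage either: it was with the 2-cell mean in libraries 3 and 5 (0.956 and 0.953) and with the fertilized egg in libraries 4 and 6 (0.931 and 0.923). The stage depended on the measure. Spearman's rho was highest with the 2-cell mean in libraries 3, 5 and 6 (0.900, 0.901 and 0.834). In library 4 it was highest with the 16-cell mean (0.890), a stage after the labelled one. These correlations run across unigenes, which are not independent replicates, and all values share 1 assembly. Of the 15697 unigenes tested below, 11003 (70.1%) had a mean in the libraries labelled 12 hpf that was nearer on the log2 scale to staged 5 hpf than to 10 hpf. The data thus go against a place after 10 hpf for these libraries on the staged scale; the reason was not tested. They are called the 12 hpf libraries below, after their label only.

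**Figure D1:**
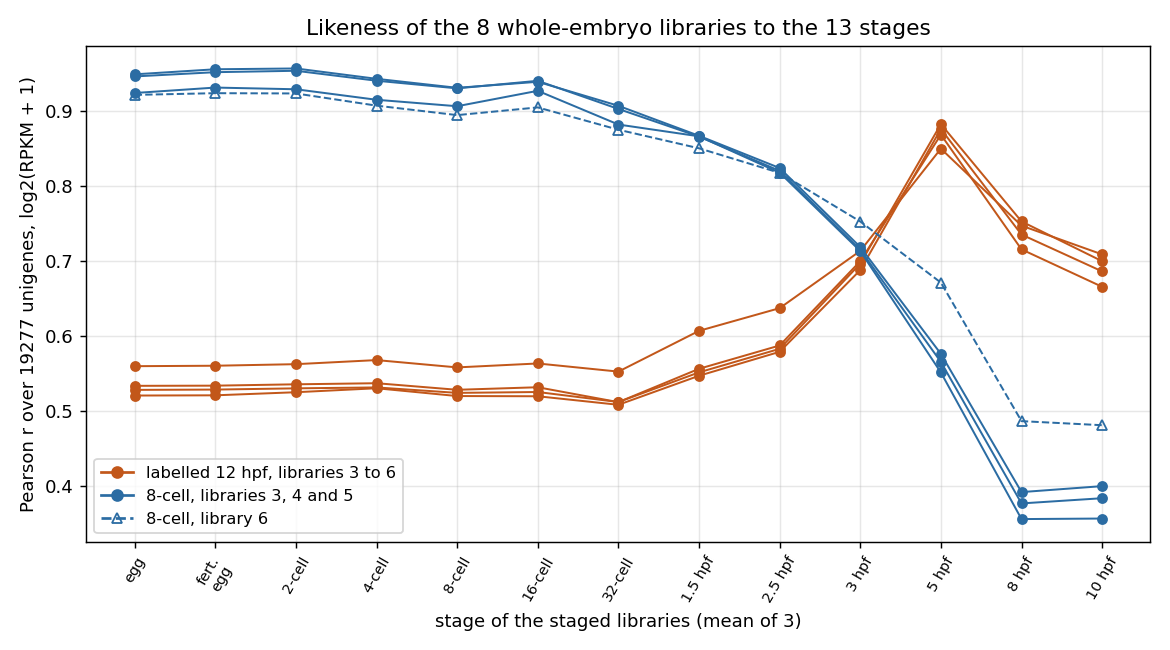
Pearson's r (vertical axis, no unit) of each whole-embryo library with the mean of each of 13 stages (horizontal axis), over 19277 unigenes on the log2(RPKM + 1) scale. Each line is 1 library. The 4 lines of the libraries labelled 12 hpf peak at 5 hpf (0.849 to 0.882) and are lower at 10 hpf (0.666 to 0.709), and the dashed line, 8-cell library 6, lies above the other 8-cell libraries at 5, 8 and 10 hpf.

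Summed RPKM ran from 878827 to 929478 at 12 hpf and from 951546 to 1081260 at 8 cells, and 14365 to 15202 unigenes reached 1 RPKM at 12 hpf. At 8 cells 7821, 8099 and 7961 unigenes did so in libraries 3, 4 and 5, and 9493 did in library 6. Counts of reads were not used here, so no counting interval is given. Relative depth was read from the most frequent ratio of nonzero values under 1 RPKM to those of 12 hpf library 3. Inverted and scaled to the median, it ran from 0.852 to 1.39 over the 8 libraries, with 8-cell library 6 deepest. That library stood apart in another way too: its mean r with the 12 hpf libraries was 0.680, against 0.561 to 0.572 for 8-cell libraries 3 to 5. Its r with staged 5 hpf was 0.671, against 0.552 to 0.576. Differences that it moves by over 1.5 times are therefore also given without it.

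Most of the transcriptome differed between the stages. Of 15697 unigenes with at least 1 RPKM in at least 4 of the 24 libraries, 8831 (56.3%) were higher at 12 hpf and 3587 (22.9%) lower, at an adjusted p under 0.05 in limma's test on log2(RPKM + 1). In 50.9% of all tested unigenes the stages did not overlap and the call was higher, and in 19.8% they did not overlap and the call was lower. By 4-fold or more, 5814 (37%) were higher and 1095 (6.98%) lower. Without 8-cell library 6, 8668 of 15691 unigenes were higher (55.2%) and 3594 lower (22.9%), and 5896 (37.6%) and 1190 (7.58%) by 4-fold or more. The split depends on the scaling. Forcing the same distribution of values on every library (quantile normalization) moved the median difference of all unigenes from 1.17 to -0.18 (log2) and gave 4138 higher (26.4%) and 5564 lower (35.4%), with 2673 and 2864 by 4-fold or more. Many of the rises were of unigenes not seen at 8 cells: 12982 unigenes reached 1 RPKM in every 12 hpf library, and 1124 of them were listed at 0 in all 4 8-cell libraries (3119 with library 6 left out). In the other direction, 7241 unigenes reached 1 RPKM in every 8-cell library, and 3 of them were listed at 0 in all 4 12 hpf libraries. Among the 6904 unigenes at 1 RPKM or more in all 8 libraries, 1383 were higher and 3286 lower at 12 hpf.

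The largest rises among unigenes with a symbol belonged to muscle and to membrane channels. Values are given for libraries 3, 4, 5 and 6 in that order, and each difference is a log2 difference of the means of log2(RPKM + 1), 12 hpf minus 8-cell, ± its SE (n = 4 libraries per stage). Each gene said to have risen or fallen passed the threshold of limma's test, and among the genes named by rule the highest adjusted p was 0.0116 (Atp2a1). Myl2, a regulatory light chain of myosin, stood at 1203, 1706, 1758 and 1295 RPKM at 12 hpf and at 0, 0.311, 0 and 5.23 RPKM at 8 cells. The difference was 9.77 ± 0.48 (adjusted p = 1.73e-13, limma) and 10.39 without 8-cell library 6. Tpm1, a tropomyosin of the thin filament, stood at 1341, 1148, 1418 and 1343 RPKM at 12 hpf and was listed at 0, 0, 0 and 6.76 RPKM at 8 cells, a difference of 9.62 ± 0.58 (10.35 without library 6). In both genes the groups lay far apart, and library 6 was the high one among the 8-cell libraries. MYH6, a myosin heavy chain, had 836, 847, 1349 and 1204 RPKM against 0, 0, 0 and 3.38 RPKM. Acta1, a skeletal muscle actin, had 2634, 1416, 2673 and 2562 RPKM against 0.537, 0.664, 1.47 and 12.1 RPKM, a difference of 9.54 ± 0.54 (10.25 without library 6). CKM, the muscle creatine kinase that buffers ATP, had 668, 518, 666 and 861 RPKM against 0, 0.184, 0 and 3.33 RPKM. Neither these 3 genes nor Myl6, another myosin light chain (difference 9.60 ± 0.59, and 10.40 without library 6), overlapped between the stages.

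Muscle was the list with the highest median difference. Of its 112 unigenes 88 passed the filter, and of these 82 (93.2%, beside 56.3% of all unigenes) were higher and 1 lower at 12 hpf, with 71 higher by 4-fold or more. The median difference was 4.97, against 1.17 over all unigenes, and 68 were higher and 5 lower after quantile normalization. The muscle share of all RPKM was 2.65%, 2.69%, 3.23% and 2.74% at 12 hpf and 0.0685%, 0.0929%, 0.0650% and 0.105% at 8 cells. Every 12 hpf library thus stood above every 8-cell library. The 1 member called lower was Atp2a1, a calcium pump of the sarcoplasmic reticulum, at 28.4, 41.9, 35.9 and 95.4 RPKM at 12 hpf and 59.1, 108, 148 and 136 RPKM at 8 cells. Its groups overlapped through 12 hpf library 6, and the difference was -1.22 ± 0.42 (adjusted p = 0.0116, limma). The other tested Atp2a1 unigene was called higher.

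Channels of water and of cell-to-cell coupling made up 3 more of the 10 largest rises. Aqp8, an aquaporin that passes water, stood at 4095, 4527, 4480 and 3194 RPKM at 12 hpf and 0.753, 0.621, 0.689 and 86.5 RPKM at 8 cells. The difference was 9.80 ± 0.86 (adjusted p = 5.71e-10, limma), and 11.22 without 8-cell library 6, whose value was far above the other 8-cell values. Gjd2, a connexin of gap junctions, had 2294, 2865, 2570 and 1311 RPKM against 0.143, 0.629, 0.393 and 30.7 RPKM, a difference of 9.49 ± 0.75 (10.63 without library 6). Gjb6, another connexin, had 1599, 2253, 1859 and 926 RPKM against 0.757, 0.998, 0.277 and 18.2 RPKM, a difference of 9.02 ± 0.65 (9.90 without library 6). Gap junctions let ions and small molecules pass between neighbouring cells, and the stages did not overlap for either gene. In the staged table, normalized on its own, the channels were lower at 10 hpf than at 5 hpf: Aqp8 had a mean of 2699 RPKM at 5 hpf and 72.1 RPKM at 10 hpf. Gjd2 had 1664 RPKM at 5 hpf and 334 RPKM at 10 hpf, and Gjb6 had 779.6 and 132 RPKM. Among the muscle genes Myl2 had 2375 RPKM at 5 hpf and 2288 RPKM at 10 hpf, and CKM had 555 and 178 RPKM. These staged pairs are given as means of 3 libraries, with no test between 5 and 10 hpf. Among unigenes without a symbol, the largest rises were OD_K29COV6_DN16087_c0_g1_i2, at 5753, 8131, 7694 and 3453 RPKM at 12 hpf, and OD_K25COV15_DN7721_c2_g1_i1, at 7194, 5612, 4603 and 6528 RPKM. At 8 cells the first had 1.45, 0.795, 1.32 and 74.9 RPKM and the second 0.421, 0.231, 3.75 and 128 RPKM, again with library 6 high. Their differences were 10.14 ± 0.98 and 10.01 ± 1.16, and 11.42 and 11.51 without library 6.

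**Figure D2:**
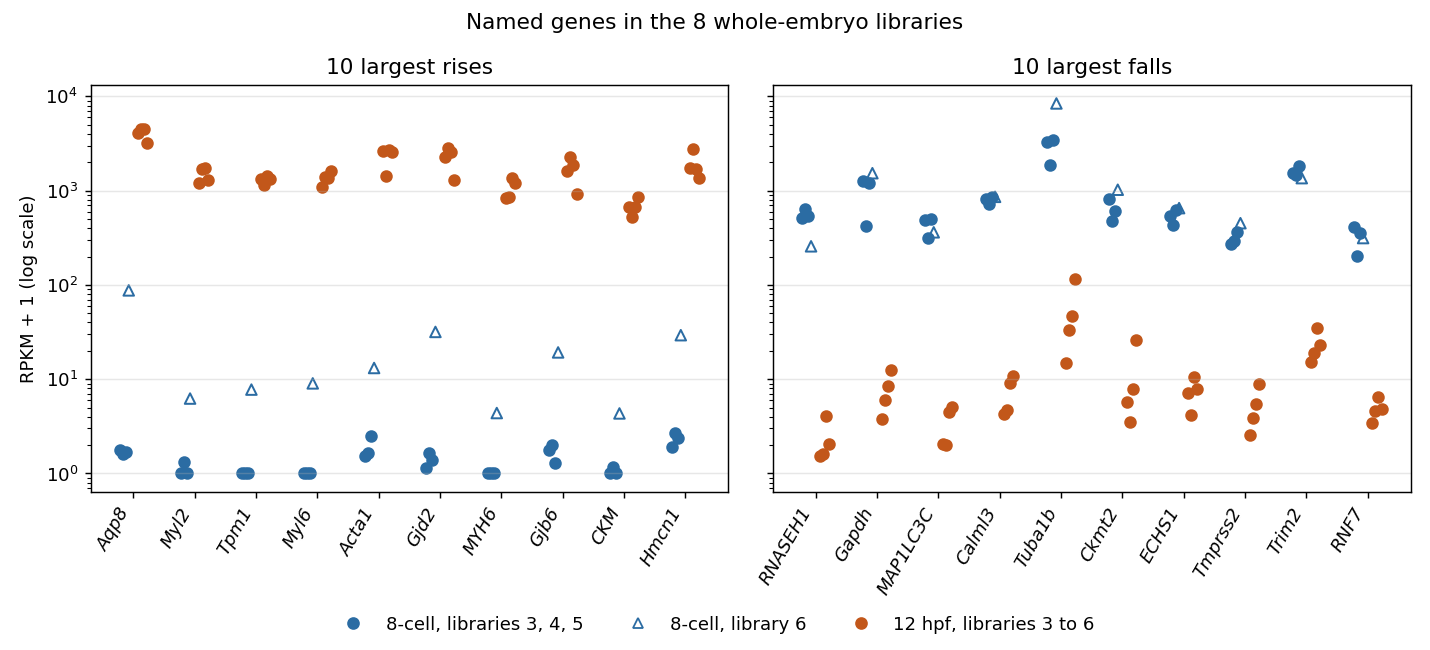
RPKM + 1 on a log scale (vertical axis) in each of the 8 libraries for the 10 largest rises (left) and the 10 largest falls (right) among unigenes with a symbol. Orange points are 12 hpf libraries, blue points 8-cell libraries 3 to 5, and open triangles 8-cell library 6. In all 20 genes the stages do not overlap, and library 6 lies above the other 8-cell libraries in every one of the 10 rises, such as Aqp8 at 86.5 RPKM.

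Most tested unigenes of the extracellular matrix and of its sulfated sugar chains were higher at 12 hpf. They stand for fewer genes: the matrix list has 54 symbols on 202 unigenes, and the list of sugar chain enzymes 35 on 151. Of 202 matrix unigenes 113 passed the filter, with 106 higher (93.8%, beside 56.3% of all unigenes) and 3 lower and a median difference of 3.11, beside 1.17 over all. Hmcn1, a hemicentin that links basement membranes, stood at 1756, 2757, 1709 and 1355 RPKM at 12 hpf and 0.900, 1.71, 1.39 and 28.3 RPKM at 8 cells, a difference of 8.71 ± 0.62 (9.63 without library 6). The stages did not overlap, with library 6 again high among the 8-cell libraries. The symbol Hmcn1 was on 25 other tested unigenes, 22 of them called higher, so the list counts are not of separate genes. TNXB, a tenascin, had unigenes called in both directions. The named one fell from 108, 39.8, 43.9 and 232 RPKM at 8 cells to 0.737, 0.549, 0.934 and 2.65 RPKM at 12 hpf, a difference of -5.31 ± 0.44, and another rose from a mean of 0.0230 ± 0.0266 to 8.02 ± 4.43 RPKM (± SD). Enzymes that build and sulfate glycosaminoglycans had 130 of 147 tested members higher (88.4%) and 5 lower, with a median of 3.73. Hs3st3b1, a heparan sulfate sulfotransferase, rose from 0, 0, 0 and 2.30 RPKM to 57.6, 103, 95.4 and 49.7 RPKM. For its relative Hs3st1, 4 of 5 tested unigenes were higher, 1 of them from a mean of 0.327 ± 0.653 to 56.1 ± 19.8 RPKM (± SD). The fifth fell from 118, 190.4, 144 and 144 RPKM to 18.1, 17.7, 33.6 and 16.9 RPKM. The share of all RPKM on this list was 0.445% to 0.815% at 12 hpf and 0.0692% to 0.113% at 8 cells. In the staged table it was 0.408% at 5 hpf and 0.139% at 10 hpf. After quantile normalization the matrix list had 58 higher and 10 lower, and the glycosaminoglycan list 89 and 14, beside 26.4% higher and 35.4% lower of all unigenes.

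Lists of nerve, cilium, gut and transport genes were also mostly higher, as were all unigenes together (56.3%). For neurons 82 of 90 tested unigenes were higher (91.1%) and 2 lower, with a median of 2.85, and for the ciliary axoneme 89 of 99 were higher (89.9%) and 2 lower, with a median of 2.93. CHRNB3, a subunit of the nicotinic acetylcholine receptor, rose from 0.105, 0, 0 and 0.233 RPKM to 31.9, 22.7, 24.1 and 30.5 RPKM. Syp, a synaptic vesicle protein, fell from 64, 44.3, 38.9 and 37.8 RPKM to 6.91, 2.81, 3.37 and 5.52 RPKM, and neither gene's groups overlapped. ENKUR, a protein of motile cilia, rose from 0, 0, 0 and 0.927 RPKM to 82.6, 59.2, 78.8 and 60.1 RPKM. Cfap20, needed for stable axonemes, was carried by 4 tested unigenes, 2 of them called higher, and the 1 named here fell from 212, 239, 241 and 90.5 RPKM to 26.4, 37.5, 40.5 and 31.8 RPKM. Library 6 was the low one among its 8-cell values. Axonemes are shared by motile cilia and sperm, and the sperm list was small: 13 of 16 tested unigenes were higher (81.2%) and 1 lower. SPATA18, which acts in mitochondrial quality control, rose from 0, 0, 0 and 2.17 RPKM to 65.6, 42.7, 39 and 56.3 RPKM, and Spata5, an ATPase also found outside the testis, fell from a mean of 48.6 ± 5.68 to 14.6 ± 1.03 RPKM (± SD). After quantile normalization the counts were 38 higher and 6 lower for neurons, 49 and 12 for the axoneme and 7 and 4 for sperm.

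Digestive enzymes had 88 of 104 tested unigenes higher (84.6%, beside 56.3% of all) and 1 lower, out of 147 in the table. Their median was 2.32, and after quantile normalization it was 0.23, with 39 higher and 13 lower. CPB1, a pancreatic carboxypeptidase, rose from 0.136, 0, 0 and 1.21 RPKM to 65.8, 47.3, 64.6 and 71.7 RPKM. CTSB, a lysosomal protease and the 1 member lower, went from 198, 198, 143 and 350.5 RPKM to 70.3, 127, 77.6 and 161 RPKM. Its groups overlapped, and its adjusted p went from 0.00251 to 0.052 after quantile normalization (limma). The other tested CTSB unigene was called higher. The list's share of all RPKM was 0.261% to 0.375% at 12 hpf, against 0.404% at staged 5 hpf and 1.81% at staged 10 hpf. Solute carriers, a large family of membrane transporters, had 257 of 365 tested unigenes higher (70.4%) and 35 lower (9.59%), beside 56.3% and 22.9% of all unigenes, and 141 and 76 after quantile normalization. Slc16a4, of the monocarboxylate transporter family, rose from 1.70, 2.35, 1.96 and 7.39 RPKM to 298, 290.0, 356 and 260.4 RPKM. Slc25a3, which carries phosphate into mitochondria, had 2 of 4 tested unigenes higher and 2 lower. The named one fell from 2007, 1217, 1807 and 2396 RPKM to 64, 67.5, 71.4 and 90.8 RPKM, a difference of -4.61 ± 0.22, and another rose from a mean of 2.62 ± 2.02 to 144 ± 41.6 RPKM (± SD).

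Most tested unigenes of developmental transcription factors on the lists were higher at 12 hpf. Homeobox factors had 64 of 73 tested unigenes higher (87.7%, beside 56.3% of all unigenes) and 2 lower, with a median of 3.37, and 43 and 6 after quantile normalization. Meis1, a cofactor of Hox proteins, rose from 0.188, 0.310, 0 and 3.33 RPKM to 102, 134, 83.9 and 95.4 RPKM. NKX2-6, of a family known in heart and pharynx, fell from 120.3, 86, 118 and 154 RPKM to 1.68, 2.68, 2.43 and 0.612 RPKM, and the stages overlapped for neither factor. The families Fox, Sox, T-box, ETS and bHLH had 58 of 65 higher (89.2%) and 2 lower, with a median of 3.70, and 37 and 8 after quantile normalization. Foxd1, a forkhead factor, rose from a mean of 0.774 ± 1.0 to 68.1 ± 20.2 RPKM (± SD), and ASCL4, a bHLH factor, fell from 66.8 ± 18.7 to 14.3 ± 6.01 RPKM. The broader list of transcription factors that the authors deposited was close to the background, with 248 of 420 tested unigenes higher (59.0%) and 89 lower (21.2%). After quantile normalization 155 of the 420 were higher and 133 lower, beside 26.4% higher and 35.4% lower of all unigenes.

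Signalling lists held genes called in both directions. Wnt pathway unigenes were higher in 19 of 37 (51.4%) and lower in 9 (24.3%), a split near that of all unigenes (56.3% and 22.9%), and after quantile normalization 10 were higher and 12 lower. FZD5, a Wnt receptor, rose from 0, 0.115, 0 and 0.695 RPKM to 66.1, 84.1, 68.3 and 45.5 RPKM. Wnt11, a ligand, fell from 11, 10.2, 10.6 and 6.27 RPKM to 0, 0.241, 0 and 0 RPKM, listed at 0 in 3 of the 4 12 hpf libraries. In the staged 8-cell libraries, normalized apart, Wnt11 had a mean of 0.304 RPKM, and no fall was called there. The TGF-beta and BMP list had 33 of 47 higher (70.2%) and 5 lower (10.6%), and 17 and 11 after quantile normalization. Fst, follistatin, a secreted inhibitor of activins and BMPs, was listed at 0 in all 4 8-cell libraries and stood at 23.9, 39.4, 69.7 and 28.9 RPKM at 12 hpf. SMAD5, which carries the BMP signal to the nucleus, fell from 34.9, 49.3, 36.4 and 43.6 RPKM to 12.6, 16, 15.4 and 9.86 RPKM. The list of FGF, ephrin and MAPK genes had 24 of 43 higher (55.8%) and 9 lower (20.9%), also near the shares of all unigenes, and its median changed sign with the scaling, from 1.46 to -0.13. Efnb2, an ephrin ligand, rose from 0, 2.70, 0 and 3.87 RPKM to 146, 196, 163 and 131 RPKM, while 1 of the 3 other Efnb2 unigenes was called lower. Notch and Hedgehog genes had 20 of 26 higher (76.9%) and 3 lower (11.5%), and 11 and 6 after quantile normalization. NUMB, an inhibitor of Notch, had 1 unigene lower and 1 that rose from a mean of 1.08 ± 1.75 to 81.7 ± 20.9 RPKM (± SD), and SUFU, an inhibitor of Hedgehog signalling, fell from 27.6 ± 5.48 to 10.6 ± 2.15 RPKM.

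**Figure D3:**
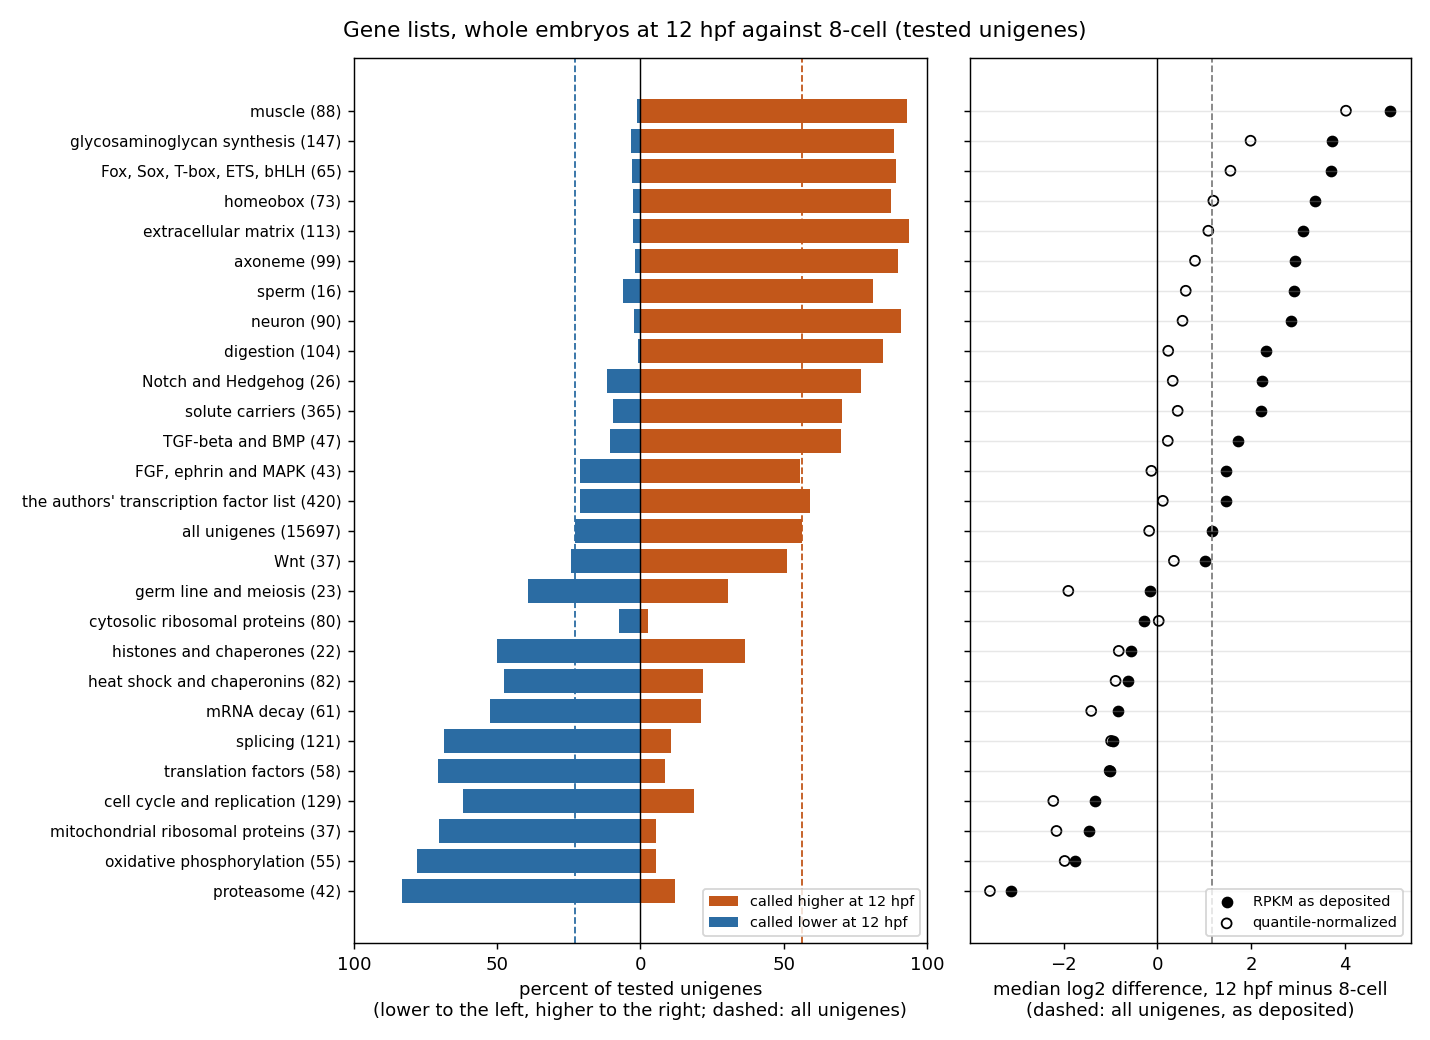
Left, percent of the tested unigenes of each list called higher (orange, to the right) or lower (blue, to the left) at 12 hpf, with dashed lines at 56.3% and 22.9% for all unigenes; the number tested is in brackets. Right, median log2 difference of each list as deposited (filled) and after quantile normalization (open). Muscle (median 4.97) is at the top and the proteasome (-3.11) at the bottom, and the median changes sign with the scaling for all unigenes, for FGF, ephrin and MAPK and for cytosolic ribosomal proteins.

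The largest falls were of unigenes named for enzymes and regulators and abundant at 8 cells. For 8 of the 10, all but MAP1LC3C and ECHS1, another unigene with the same symbol was called higher, as were 56.3% of all tested unigenes. The values below are therefore those of single unigenes. RNASEH1, which removes RNA from RNA-DNA hybrids, stood at 509.9, 640.1, 539.9 and 256 RPKM at 8 cells and 0.515, 0.603, 3.08 and 1.03 RPKM at 12 hpf. The difference was -7.77 ± 0.42 (adjusted p = 4.24e-13, limma). MAP1LC3C, of the LC3 family that coats autophagosomes, stood at 484, 315, 505 and 361 RPKM at 8 cells and 1.05, 1.03, 3.50 and 4.05 RPKM at 12 hpf, a difference of -7.04 ± 0.33. Trim2, a ubiquitin ligase, had 1530, 1472, 1805 and 1356 RPKM at 8 cells and 14.3, 18, 34.2 and 21.8 RPKM at 12 hpf. The 8-cell values lay within a narrow range in Trim2 and the 12 hpf values were low in every library. RNF7, a RING subunit of cullin ubiquitin ligases, had 409, 202, 353 and 313 RPKM at 8 cells and 2.44, 3.64, 5.53 and 3.79 RPKM at 12 hpf. ECHS1, an enzyme of fatty acid oxidation in mitochondria, had 541, 434, 617 and 652 RPKM at 8 cells and 6.16, 3.20, 9.54 and 6.86 RPKM at 12 hpf. Ckmt2, a mitochondrial creatine kinase, had 815, 473, 615 and 1022 RPKM at 8 cells and 4.70, 2.53, 6.90 and 25 RPKM at 12 hpf. No value of 1 stage reached the range of the other in these genes. The remaining 4 of the 10 largest falls were Gapdh of glycolysis (-7.16 ± 0.43), the calmodulin-like Calml3 (-6.91 ± 0.37), the tubulin Tuba1b (-6.50 ± 0.56) and the membrane serine protease Tmprss2 (-6.17 ± 0.46). Without a symbol, the largest falls were of OD_K21COV4_DN7771_c0_g1_i1 (-7.41 ± 0.57) and OD_K29COV6_DN22563_c3_g1_i2 (-7.10 ± 0.79). Of these 10 falls, 9 were also called in the staged table at 10 hpf against 8-cell; Ckmt2 was not, with means of 47.8 RPKM at 8 cells and 27.2 RPKM at 10 hpf. At staged 5 hpf it had a mean of 5.51 RPKM, and that fall was called (-3.03, adjusted p = 7.1e-05, limma).

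The proteasome, the protein complex that degrades ubiquitinated proteins, had the lowest median of the lists. Of 42 tested unigenes 35 were lower (83.3%, beside 22.9% of all) and 5 higher, 34 lower by 4-fold or more, with a median of -3.11 and 36 lower after quantile normalization. Its share of all RPKM was 1.17%, 1.12%, 1.1% and 1.28% at 8 cells and 0.120%, 0.134%, 0.133% and 0.173% at 12 hpf. Psma1, an alpha ring subunit of the core, stood at 616, 515, 478 and 611 RPKM at 8 cells and 21.2, 25.1, 28.7 and 30.6 RPKM at 12 hpf, a difference of -4.35 ± 0.19 (adjusted p = 3.11e-14, limma). Across the staged table the share was 1.03% in the egg, 0.798% at 8 cells, 0.448% at 1.5 hpf, 0.121% at 5 hpf and 0.0675% at 10 hpf. The 5 members called higher were 3 unigenes named PSMD10 or Psmd10, Psmd9 and 1 unigene named Psme3, which are assembly chaperones and a regulator and not subunits of the core. These were named after their values were seen. PSMD10 (gankyrin), in its unigene with the smallest p, rose from 0.622, 0.741, 0.569 and 3.45 RPKM to 67.5, 60.5, 42 and 44.1 RPKM. Psme3 was split, with 1 unigene lower, from a mean of 173 ± 39.9 to 18.4 ± 2.34 RPKM (SD), and 1 listed at 0 in all 8-cell libraries and at 0.205, 0, 1.83 and 1.03 RPKM at 12 hpf. Without 8-cell library 3 or 5, or 12 hpf library 5, 3 members were called higher.

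Nuclear genes of oxidative phosphorylation, which build the respiratory chain and ATP synthase, were also mostly lower. Of 55 tested unigenes 43 were lower (78.2%) and 3 higher, beside 22.9% and 56.3% of all unigenes. The median was -1.76, beside 1.17 over all. After quantile normalization 46 were lower and 1 higher, beside 35.4% and 26.4% of all unigenes. The list's share of all RPKM was 2.55%, 1.50%, 2.23% and 2.50% at 8 cells and 0.370%, 0.390%, 0.424% and 0.518% at 12 hpf. ATP5F1, a subunit of ATP synthase, stood at 2764, 1806, 2518 and 2677 RPKM at 8 cells and 159.7, 131, 202 and 303 RPKM at 12 hpf, a difference of -3.66 ± 0.25. The 3 members higher were Cycs (cytochrome c), listed at 0 in all 8-cell libraries and at 2.63, 1.03, 3.49 and 5.27 RPKM at 12 hpf, COX19 and Ndufab1. Their number fell to 1 without 12 hpf library 4 or 5 or 8-cell library 5, and Cycs was not called after quantile normalization (adjusted p = 0.546, limma).

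For part of this list the 2 tables differed. Against the staged 8-cell libraries, staged 10 hpf had 26 of 56 unigenes of this list higher and 20 lower, with a median of 0.80. All unigenes tested there had 56.4% higher and 15.8% lower, with a median of 1.17. Staged 5 hpf shares those 8-cell libraries and was added after the likeness to that stage was seen. It had 19 higher and 19 lower (median 0.01), beside 58.5% higher and 10.6% lower of all unigenes (median 1.17). Of 55 members tested in both tables, 19 were lower in both, 3 higher in both, and 15 lower here but higher at staged 10 hpf. With 5 hpf in its place these numbers were 18, 2 and 10. COX5A, a subunit of cytochrome c oxidase, was among the 15: here it stood at 610, 159, 335 and 519 RPKM at 8 cells and 121, 128, 173 and 165 RPKM at 12 hpf. In the staged table it stood at 31.7, 28.2 and 20.6 RPKM at 8 cells, at 159, 216 and 358 RPKM at 5 hpf and at 541, 786 and 612 RPKM at 10 hpf. The 12 hpf values were thus nearer to staged 5 hpf than to 10 hpf, and the 8-cell values of the 2 tables were far apart, although levels in tables normalized separately are not directly comparable. A unigene named ATP5G2, a membrane subunit of ATP synthase, showed the same with 2445, 713, 2649 and 1826 RPKM at 8 cells here and 215, 101 and 102 RPKM in the staged 8-cell libraries. Across the staged course the list's share was 4.57% in the egg, 2.50% at 2 cells and 1.24% at 8 cells. Later it was 0.253% at 3 hpf, 0.443% at 5 hpf and 0.922% at 10 hpf. COX5A and ATP5G2 were chosen after their values were seen, and why the 8-cell libraries of the 2 sets differ was not tested.

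**Figure D4:**
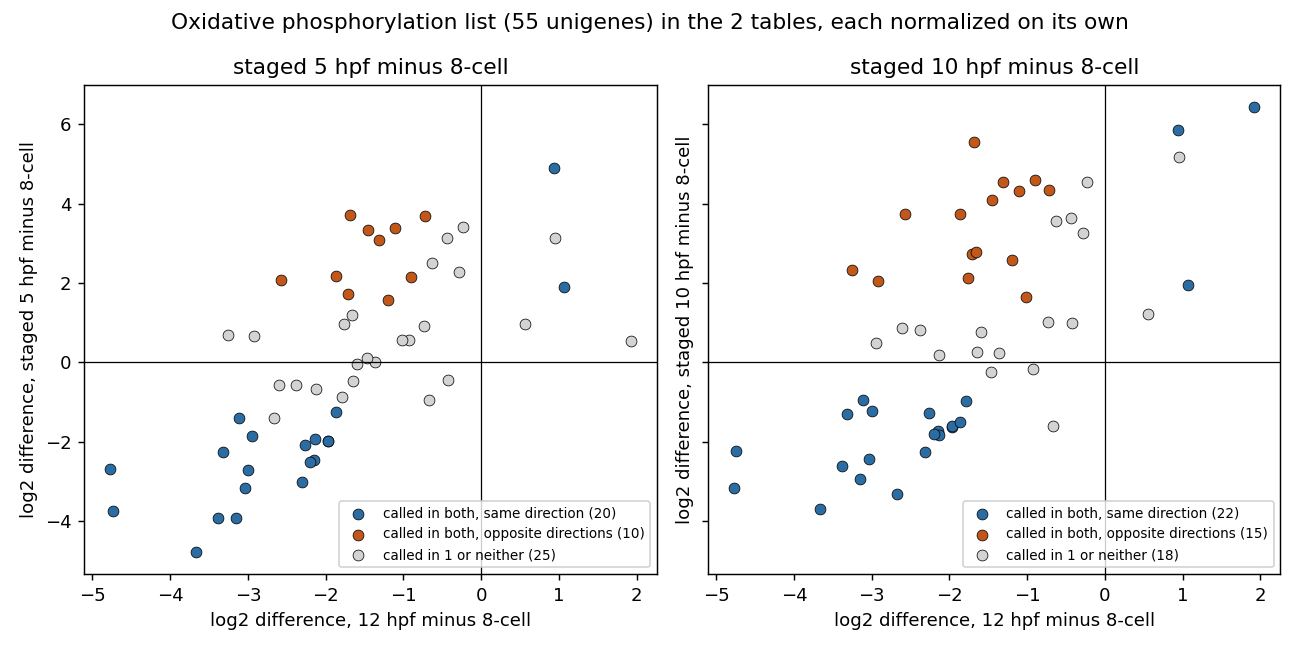
Log2 difference of each of 55 oxidative phosphorylation unigenes in the whole-embryo comparison (horizontal axis) against its log2 difference from staged 8-cell at staged 5 hpf (left) and staged 10 hpf (right), on the log2(RPKM + 1) scale. Both panels share the staged 8-cell libraries. Orange points are called in opposite directions in the 2 tables (10 at 5 hpf, 15 at 10 hpf) and blue points in the same direction (20 and 22).

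Genes that make and process RNA and protein were mostly lower. Translation factors had 41 of 58 tested unigenes lower (70.7%, beside 22.9% of all) and 5 higher, with a median of -1.02, and splicing factors had 83 of 121 lower (68.6%) and 13 higher, with a median of -0.94. Eif2b1, of the exchange factor that recycles eIF2, fell from 96.1, 68.6, 96 and 74.2 RPKM to 13.1, 10.8, 17.5 and 16 RPKM. EIF5, which acts at start codon selection, had a unigene that rose from 4.43, 5.32, 3.77 and 15 RPKM to 182, 191, 127 and 149.6 RPKM. Both genes were separated between the stages in every library. Prpf4, of the spliceosome's U4/U6 particle, fell from a mean of 108 ± 22.6 to 17 ± 6.82 RPKM (± SD). Hnrnpdl, an RNA-binding protein of the hnRNP family, had 2 unigenes lower and 1 that was high at 12 hpf, at 208, 258, 238 and 133 RPKM against 0, 0, 0.383 and 2.16 RPKM at 8 cells, and in the staged table it had a mean of 356 RPKM at 5 hpf and 7.59 RPKM at 10 hpf. Mitochondrial ribosomal proteins had 26 of 37 lower (70.3%) and 2 higher. Mrpl3 fell from a mean of 78.2 ± 10.3 to 13.8 ± 5.90 RPKM (± SD), and Mrps31 rose from 12.1 ± 8.19 to 28.3 ± 4.24 RPKM but was not called after quantile normalization (adjusted p = 0.111, limma).

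Cytosolic ribosomal proteins had few calls: 2 of 80 tested unigenes were higher (2.5%) and 6 lower (7.5%), beside 56.3% and 22.9% of all. The number lower was 3 without 12 hpf library 4 and 10 without 8-cell library 4 or 12 hpf library 6. They took 25.8% to 34.8% of all RPKM at 12 hpf and 28.8% to 36.8% at 8 cells, ranges that overlap. In the staged table, normalized on its own, their share was 54.2% at 8 cells, 39.9% at 5 hpf and 39.6% at 10 hpf. The staged 8-cell libraries (51.2% to 56.4%) lay above every 8-cell library here, and the reason was not tested. A unigene named RPL7A was called higher, at 312, 345, 519 and 376 RPKM at 12 hpf and 1.11, 0.244, 0.204 and 1.15 RPKM at 8 cells. RPL7L1, a ribosome assembly factor that the list takes in by its spelling, fell from 394, 314, 474 and 333 RPKM to 150.3, 176, 224 and 237 RPKM. Factors of mRNA decay had 32 of 61 lower (52.5%) and 13 higher. Dcp1b, a cofactor of mRNA decapping, fell from 43.5, 72.8, 42 and 65.7 RPKM to 3.01, 1.86, 5.08 and 4.38 RPKM. ZFP36L1, which binds AU-rich elements and leads mRNAs to decay, rose from 0.128, 0, 0.469 and 0.947 RPKM to 54.5, 61.2, 32.5 and 39 RPKM.

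Cell cycle and replication genes had 80 of 129 tested unigenes lower (62.0%, beside 22.9% of all), 40 of them by 4-fold or more, and 24 higher (18.6%). CDC25A, the phosphatase that activates cyclin-dependent kinases, had unigenes called in both directions. The named one fell from 258, 151, 184 and 252 RPKM to 10.8, 13.3, 15.3 and 17.3 RPKM, a difference of -3.79 ± 0.20, and another rose from 0.376, 0, 1.03 and 6.95 RPKM to 109, 143, 84.7 and 67.3 RPKM. CDC14A, a phosphatase of mitotic exit, rose from 1.11, 1.15, 0.596 and 5.30 RPKM to 163, 161, 129 and 143 RPKM. The list's share of all RPKM was 1.1% to 1.59% at 8 cells and 0.403% to 0.513% at 12 hpf, against 0.418% at staged 5 hpf and 0.105% at 10 hpf. Histones and their chaperones were divided, with 8 of 22 higher (36.4%) and 11 lower (50%), beside 56.3% and 22.9% of all unigenes. H1F0, the linker histone of cells that leave the cycle, rose from 18.9, 53.4, 24.2 and 85.9 RPKM to 1722, 1763, 1973 and 961 RPKM, and the chaperone Nap1l4 fell from 655, 523, 561 and 586 RPKM to 79.5, 88.4, 71.1 and 154 RPKM. Germ line and meiosis genes had 7 of 23 higher (30.4%) and 9 lower (39.1%). After quantile normalization 2 were higher and 18 lower, beside 26.4% higher and 35.4% lower of all unigenes. BOLL, a translation regulator of the DAZ family, rose from 0, 0.218, 0 and 4.18 RPKM to 365, 307, 244 and 264 RPKM, with library 6 high among the 8-cell values. Henmt1, which methylates piRNA ends, fell from a mean of 25.7 ± 5.98 to 2.24 ± 1.55 RPKM (± SD). Heat shock genes and chaperonins had 39 of 82 lower (47.6%) and 18 higher. Dnaja3, a mitochondrial co-chaperone, had 2 unigenes higher and 1 that fell from 111 ± 25.6 to 16.6 ± 2.55 RPKM, and Cct3, a subunit of the ring chaperonin that folds actin and tubulin, rose from 11.2 ± 0.546 to 78.6 ± 16.3 RPKM (means ± SD).

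Some symbols were carried by different unigenes that moved in opposite directions. Among the genes named by rule, 40 of 70 had another tested unigene (21 named for a rise and 19 for a fall). For 19 of these 40 it was called the other way (3 of the 35 named for a rise and 16 of the 35 named for a fall). The 2 counts are not on equal terms, since 56.3% of all tested unigenes were higher and 22.9% lower. Of 1473 symbols on more than 1 tested unigene, 79 (5.36%) had at least 1 unigene higher and 1 lower by 4-fold or more, with no overlap between the stages. In 57 of the 79 both were called in the same directions at staged 10 hpf. The unigenes come from a de novo assembly, so a shared symbol can mean paralogs, alleles or fragments of 1 transcript, and reads can be split between near-identical copies. The examples here were chosen after their values were seen. For Tuba1b, an alpha-tubulin, 4 unigenes were higher and 3 lower by 4-fold or more: 1 rose from 0, 0, 0 and 1.15 RPKM to 249.9, 162, 152 and 303 RPKM. Another fell from 3258, 1877, 3476 and 8419 RPKM to 14, 32, 45.7 and 113 RPKM. For Gata3, a zinc finger factor, the unigene that rose went from 0, 0, 0 and 0.609 RPKM at 8 cells to 31.2, 39.7, 28.3 and 15.7 RPKM at 12 hpf. The other Gata3 unigene went from 74.5, 74.6, 88.5 and 86.6 RPKM to 0, 0, 0.892 and 0.562 RPKM. The exchange was nearly complete in Gata3, with each unigene at under 1 RPKM in the stage where it was low. Cldn19, a claudin of tight junctions, had 7 unigenes higher and 1 lower by 4-fold or more, the latter going from 3222, 1895, 1778 and 2946 RPKM to 33.9, 30.5, 46.2 and 68.6 RPKM. Among gap junction genes, Gja4 had a unigene that fell from 866, 1242, 1065 and 654 RPKM to 8.88, 24, 18.3 and 43.7 RPKM and another that rose from 0, 0, 0.560 and 1.81 RPKM to 40.2, 21.4, 29.4 and 30.2 RPKM. Gapdh, of glycolysis, had a unigene that fell from 1275, 420.5, 1213 and 1531 RPKM to 2.78, 5.03, 7.38 and 11.5 RPKM and 2 that were higher by 4-fold or more, 1 of them from 0, 0, 0 and 2.66 RPKM to 41.7, 20.2, 28.5 and 22.5 RPKM.

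Calls were then set beside the staged table, in which 10 hpf against 8-cell gave 10548 of 18704 unigenes higher (56.4%) and 2952 lower (15.8%), and by 4-fold or more 6700 (35.8%) and 1521 (8.13%). Of 15573 unigenes tested in both, 7651 were higher in both comparisons, which is 87.4% of the 8757 calls here and 88.3% of the 8662 staged calls. Of the falls, 2349 were shared, 65.5% of 3585 calls here and 79.9% of 2940 staged calls. Opposite calls numbered 39 among the rises here and 156 among the falls. With staged 5 hpf in place of 10 hpf, 10938 unigenes were higher (58.5%) and 1987 lower (10.6%), and by 4-fold or more 6393 (34.2%) and 809 (4.33%). The rises then shared 8127 unigenes, 92.8% of the calls here and 85.9% of 9460 staged calls. The falls shared 1743, 48.6% of the calls here and 88.1% of 1979 staged calls, with 2 opposite calls among the rises and 176 among the falls. Both staged contrasts use the same 3 staged 8-cell libraries. The 2 sets of 8-cell libraries share no sample with each other.

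The share of rising unigenes at 1 RPKM or more grew from the 32-cell stage to 5 hpf, as did that of all unigenes. Of the 5805 unigenes higher by 4-fold or more that reached 1 RPKM in some stage, 10.7% reached it at 32 cells, 29.8% at 1.5 hpf, 38.5% at 2.5 hpf, 73.5% at 3 hpf and 98.6% at 5 hpf. Over all 15473 tested unigenes these shares were 47%, 58.3%, 62.0%, 79.1% and 93.4%. Their highest stage mean fell at 5 hpf in 2285 (39.4%), at 8 hpf in 1677 (28.9%) and at 10 hpf in 1070 (18.4%), against 22.5%, 17.8% and 12.9% of all 15473 tested unigenes. The 1093 unigenes lower by 4-fold or more had a median of 69.8 RPKM in the egg, 49.6 RPKM at 8 cells, 36.7 RPKM at 1.5 hpf, 12.4 RPKM at 5 hpf and 7.66 RPKM at 10 hpf. In 324 of them (29.6%) the unfertilized egg had the highest mean, beside 9.84% of all tested unigenes. In the egg 96.8% of them were at 1 RPKM or more, beside 51.3% of all. The rising and falling unigenes were picked by their levels at 8 cells and 12 hpf, and the tested unigenes as a whole were not. Such gaps to all tested unigenes therefore follow in part from the selection.

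**Figure D5:**
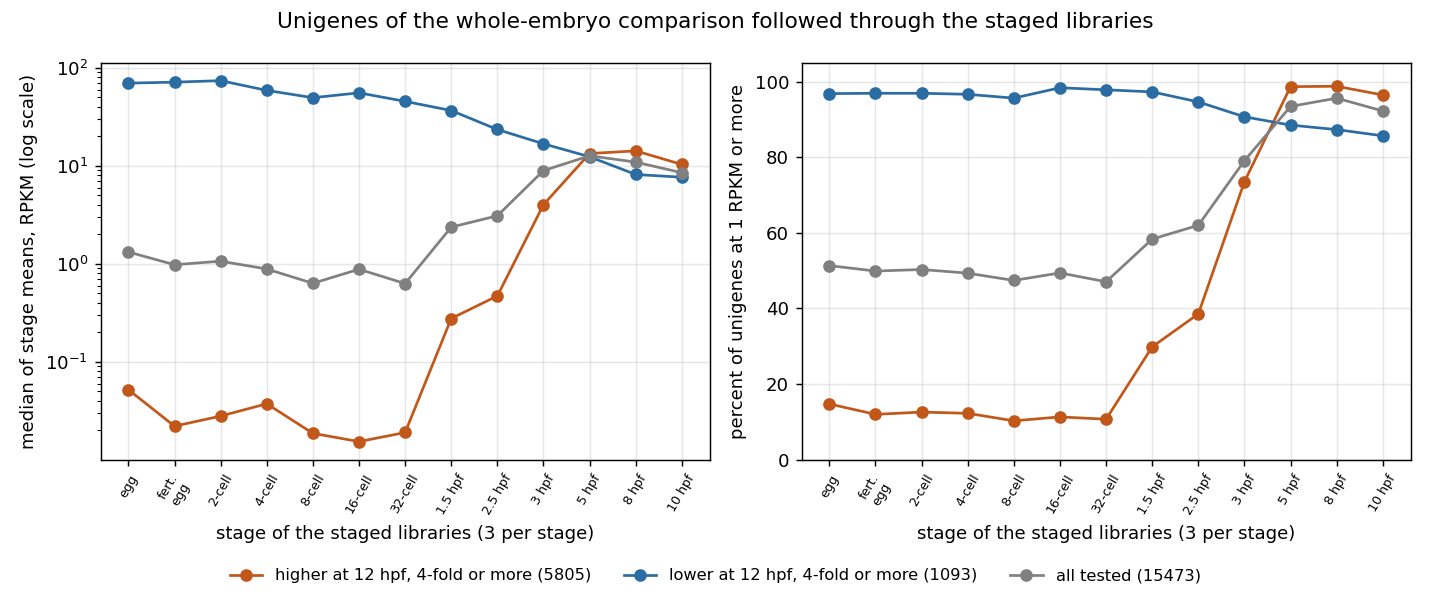
Left, median over unigenes of the stage mean in RPKM (log scale) across 13 stages (3 libraries each) for unigenes higher (orange) or lower (blue) by 4-fold or more at 12 hpf, and for all tested (grey). Right, percent of the same unigenes at 1 RPKM or more. The orange line on the right goes from 10.7% at 32 cells to 98.6% at 5 hpf, and the blue line on the left from 69.8 RPKM in the egg to 7.66 RPKM at 10 hpf.

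The level of rising unigenes in 8-cell library 6 was measured with the calls made without it. Over 5896 unigenes called higher by 4-fold or more without that library, its median level was 3.51% of the 12 hpf mean, against a median of 0 in 8-cell libraries 3, 4 and 5. It held 2435 of them at 1 RPKM or more, against 803, 937 and 867. Libraries 3, 4 and 5 entered these calls and library 6 did not, so low values in the former follow in part from the selection. Library 6 was also the deepest, at a relative depth of 1.39. By list the median level in library 6 was 0.535% of the 12 hpf mean for 71 muscle unigenes, 2.17% for 65 neuron unigenes, 4.38% for 58 digestion unigenes and 7.20% for 14 unigenes of FGF, ephrin and MAPK. This percentage was lower for muscle than for the other lists named here, but it also depends on the level at 12 hpf. The median of the 12 hpf means was 109 RPKM for muscle, against 9.72 to 23.3 RPKM for the others. In RPKM, the median in library 6 was 0.614 for muscle, 0.321 for neuron and 0.563 for digestion unigenes. It was 1.65 RPKM for FGF, ephrin and MAPK. The lower percentage thus does not show that library 6 held less muscle RNA than RNA of the other lists. What gave library 6 these values was not tested, and leaving it out changed the number of 4-fold rises from 5814 to 5896.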

How the data were processed

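RNA-seq was used on whole embryos (4 libraries at 8 cells, 4 labelled 12 hpf). The authors' deposited tables give RPKM per unigene of a de novo assembly, after alignment with HISAT2 per the submitters' processing notes (its version is not given in those notes). Another deposited column, a BLAST e-value in the authors' transcription factor list, marked only which unigenes the list holds. A further 148 columns with values per library in other sheets were not used. Depth per library is given as relative depth and summed RPKM.

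Values were analysed as log2(RPKM + 1), so fold changes of low unigenes are understated. Unigenes at 1 RPKM or more in at least 4 of 24 libraries (15697) entered limma 3.58.1 (R 4.3.3; functions lmFit and eBayes, trend on; 18 residual degrees of freedom), and the Benjamini-Hochberg adjustment ran over all of them with a threshold of 0.05. All 24 libraries share 1 estimate of the spread. The staged set was fitted apart (at least 2 of 43 libraries, 18704 unigenes, 28 degrees of freedom). The fit was tested on simulated data with 200 changed unigenes. Alternatives were pseudocount 0.1, other filters, quantile normalization, whole embryos alone, a replicate block, and leaving out each library. After seeing the data, 3 were added: leaving out 2 libraries that stand apart, whole embryos alone without 8-cell library 6, and staged 5 hpf in place of 10 hpf.

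The 26 gene lists were read from the spelling of symbols, and the mitochondrial genome list had no tested unigene. List counts are of unigenes: the muscle list has 39 symbols on 112 unigenes and the digestion list 36 on 147. Members, lists and rules were chosen with earlier results of these data known. Named genes are the 10 largest rises and 10 largest falls with a symbol, groups that did not overlap and a call without 8-cell library 6, and from each list the member with the smallest p in each direction; 1 gene that this rule takes is not reported here. Gene symbols come from the deposited RPKM table of the set of 24 libraries. No sequence is given, since the sources used here do not pair unigenes with sequences. Summaries and plots used Python 3.11.15 with pandas 2.3.3, numpy 2.4.6 and matplotlib 3.10.9.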

Additional observations from a re-analysis of the deposited data

Results flagged for a closer look

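In 23 of 148 groups of 4 libraries (74 named unigenes at 2 stages), 1 library lay apart from the other 3 on the log2(RPKM + 1) scale by Dixon's criterion. For values that vary continuously chance gives about 1 in 20 groups, which is no rate for these: in 9 of the 23 the other 3 libraries were listed at 0, so that any value above 0 meets the criterion. In 18 of the 23 the library was 8-cell library 6, above libraries 3, 4 and 5. Among muscle genes its levels were 5.23 RPKM for Myl2, 6.76 for Tpm1, 8.03 and 0.741 for the 2 Myl6 unigenes, 3.38 for MYH6 and 3.33 for CKM, where the other 8-cell libraries reached at most 0.311. Among channels and matrix genes it had 86.5 RPKM for Aqp8, 30.7 for Gjd2, 18.2 for Gjb6, 28.3 for Hmcn1, 0.706 for HMCN2 and 2.30 for Hs3st3b1. It also had 1.21 RPKM for CPB1, 0.927 for ENKUR, 2.17 for SPATA18, 4.18 for BOLL, 3.45 for PSMD10 and 74.9 for the unigene OD_K29COV6_DN16087_c0_g1_i2, which has no symbol. In Cfap20 (90.5 RPKM) and Wnt11 (6.27 RPKM) library 6 lay below the others. At 12 hpf library 4 was low for Acta1 (1416 RPKM, others 2562 to 2673) and the only one above 0 for Wnt11 (0.241 RPKM), and library 5 was high for Hs3st1 (33.6 RPKM, others 16.9 to 18.1).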

How the results depend on the processing

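After quantile normalization 4138 unigenes were higher and 5564 lower (2673 and 2864 by 4-fold or more); for staged 10 hpf against 8-cell these were 4926, 6450, 3299 and 3825. With a pseudocount of 0.1 the staged 4-fold rises numbered 10398, and with staged 5 hpf in place of 10 hpf the 4-fold falls numbered 809. Leaving out each whole-embryo library in turn gave 8393 to 8702 higher, 3317 to 3594 lower, and 5673 to 5896 and 1037 to 1190 by 4-fold or more. Leaving out each staged library gave 9771 to 10323 higher, 2651 to 2875 lower, and 6444 to 6906 and 1446 to 1650 by 4-fold or more. The other alternatives left these counts within 1.5 times, such as 7383 higher and 3521 lower with the 8 whole-embryo libraries alone, and 7341 and 3531 without 8-cell library 6 as well. With a replicate block 9029 were higher and 3827 lower (5817 and 1101 by 4-fold or more). Whether the numbers shared by the stages pair the samples is not known. Deviations of libraries with the same number correlated at r of -0.0466 to 0.113 (4 pairs), and of different numbers at -0.126 to 0.174 (12 pairs). These correlations cannot decide it, since paired samples of such unlike stages need not deviate alike. Under the block the lower calls in the TGF-beta list numbered 8 and in the cytosolic ribosomal list 10. No named unigene reversed, and 3 lost their call after quantile normalization (CTSB, Mrps31 and Cycs). Of the list counts under the alternatives, 781 stayed within 1.5 times and 51 did not, and 31 of the latter were under quantile normalization. Small list counts moved when 1 library was left out: glycosaminoglycan lower went from 5 to 3 without 12 hpf library 4 or 8-cell library 5, and homeobox lower from 2 to 4 without 8-cell library 5. With whole embryos alone and 8-cell library 6 left out, muscle lower was 2, Wnt lower 4, cytosolic ribosomal lower 13, proteasome higher 3 and heat shock higher 11. No counts of reads were used, so depth limits the values near 0 by an amount not measured here.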

Other observations

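Opposite calls in the 2 tables also touched mitochondrial genes outside the oxidative phosphorylation list. The 2 below were chosen after their values were seen, as those with the widest gap among unigenes with a symbol after ATP5G2, and each table was normalized on its own. ETFA, an electron carrier of fatty acid oxidation, had a mean of 208 RPKM at 8 cells and 16.2 RPKM at 12 hpf, against 10.9 RPKM at staged 8-cell and 92.7 RPKM at staged 10 hpf. Hspe1, the mitochondrial chaperonin partner, had 427 RPKM at 8 cells and 69.2 RPKM at 12 hpf, against 13.0 RPKM at staged 8-cell and 193 RPKM at staged 10 hpf. Both were called lower here and higher in the staged table by limma.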
